A study of Mus musculus with 36 samples.

Results

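Hydroxymethylcytosine (5hmC) was read at high levels at 10023 of 1175518 measured autosomal CpG cytosines in unoperated mouse knee cartilage. These cytosines, called 5hmC-rich below, had at least 10 reads in every one of the 12 control DNA libraries and a difference of at least 20 percentage points between bisulfite (BS) and oxidative bisulfite (oxBS) sequencing in the pooled control reads. They made up 0.853% of the measured cytosines and lay in 9773 CpGs, since each strand of a CpG was read separately. Differences of the same size in the opposite direction, which no amount of 5hmC can give, were found at 3 cytosines, or at 17 when control 4 weeks replicate 2 was left out.

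5-Methylcytosine (5mC) is written by the DNA methyltransferases and is oxidised to 5hmC by the TET dioxygenases, which use oxygen, iron and 2-oxoglutarate. 5hmC is an intermediate of active demethylation and is also kept as a stable mark, which in differentiated tissues is known from the bodies of expressed genes and from enhancers. BS sequencing reads 5mC and 5hmC alike as cytosine, whereas the oxidation step of oxBS makes 5hmC read as thymine, so the BS percentage minus the oxBS percentage estimates 5hmC and the oxBS percentage estimates 5mC.

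The tissue was articular cartilage microdissected from the knees of male C57BL/6J mice, operated at 12 weeks of age. The right knee was operated by destabilizing its medial meniscus (DMM), which models post-traumatic osteoarthritis (OA), and the left knee of the same mice, which was not operated and had no sham surgery, was the control. At 4 weeks and at 12 weeks after surgery there were 3 control and 3 DMM DNA samples, each pooled from the cartilage of 3 knees and each read as a BS and an oxBS library after MspI digestion. RNA-seq covered the same 4 groups with 3 libraries each, from other mice. Whether the DNA samples that served as replicates shared a litter or a day is not given, so p-values measure the spread between these pools.

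Sequences of 4 regions show where 5hmC-rich CpGs sat close together. They are given 5′ to 3′ on the plus strand of GRCm38 as provided by NCBI RefSeq, with every 5hmC-rich CpG in capitals and other CpGs in lower case. An intron of Fndc3b, which encodes a fibronectin type III domain protein, had the highest mean 5hmC in DMM cartilage among the 20 regions with most 5hmC-rich CpGs. The Sgms2 intron, in the gene of sphingomyelin synthase 2, held 6 such CpGs, and the Cmip intron stands for the gene with the most. The intergenic stretch of chromosome 10 had more 5hmC than 5mC.
Fndc3b intron, chr3:27624219-27624345: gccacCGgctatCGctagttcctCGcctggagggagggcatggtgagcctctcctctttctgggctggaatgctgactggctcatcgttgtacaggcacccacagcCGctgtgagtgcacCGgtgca
Sgms2 intron, chr3:131483118-131483297: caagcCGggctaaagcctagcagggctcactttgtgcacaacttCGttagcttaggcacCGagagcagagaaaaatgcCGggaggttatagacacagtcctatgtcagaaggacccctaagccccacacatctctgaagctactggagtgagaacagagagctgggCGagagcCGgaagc
Cmip intron, chr8:117282561-117282669: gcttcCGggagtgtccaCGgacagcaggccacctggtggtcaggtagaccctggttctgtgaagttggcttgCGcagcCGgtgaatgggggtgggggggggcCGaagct
Intergenic, chr10:66937310-66937366: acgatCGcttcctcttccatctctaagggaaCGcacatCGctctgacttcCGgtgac

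The DNA libraries differed in depth. The median coverage of a cytosine ranged from 19 to 102 reads over the 24 DNA libraries, and the control sample 4 weeks replicate 2 was the deepest in both assays. The deposited coverages and percentages gave whole numbers of methylated reads. Cytosines of the mitochondrial genome, which serve as a measure of unconverted cytosine, read as methylated in 0.530% to 0.742% of reads in the 4-week libraries and in 0.284% to 0.364% in the 12-week libraries, without overlap between the times and with BS and oxBS libraries in the same range at each time.

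In control cartilage the values that chose the 5hmC-rich cytosines were as follows, and they are a description without a test. Their median BS level was 79.8%, their median oxBS level 56.3% and their median difference 22.6 points, with a maximum of 43.5. The difference made up 29.7% of the BS level at the median 5hmC-rich cytosine, against 4.54% at the median of all 398256 cytosines with a BS level of at least 50%, called highly methylated here. Most 5hmC-rich cytosines, 9388, were themselves highly methylated. More 5hmC than 5mC was read at 516 of them. Just inside the threshold, between 20 and 21 points, were 2323 cytosines, and just outside it, between 19 and 20 points, were 2800, so the threshold divides a continuous range. In pooled DMM reads the 2 sets had median differences of 19.9 and 18.9 points.

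The rule rested in part on one sample. Without control 4 weeks replicate 2, which had a mean coverage of 135 BS reads at the 5hmC-rich cytosines where the other 5 control samples had 21.3 to 55.1, the same rule found 5776 cytosines, 4574 of them among the 10023. The calls in DMM libraries and the intron share are given for both sets, and the regions, genes, neighbours and expression only for the 10023.

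The DMM libraries took no part in the choice, and they carried a large amount of 5hmC at the same positions. Of the 10023 cytosines, 8914 had at least 10 reads in all 12 DMM libraries as well. Their median difference in pooled DMM reads was 22.4 points, with 12.4 at the 5th percentile and 32.3 at the 95th. The difference was at least 20 points at 65.8% of them (background over all 1100989 cytosines with that coverage 1.36%) and at or above 0 at 99.9%. BS exceeded oxBS in each of the 6 DMM samples at 7182 cytosines, or 80.6% (background 8.47%). A limma moderated test over all cytosines called 7933 of the 8914 higher in BS than in oxBS at an adjusted p under 0.05, or 89.0% (background 7.96%), and none lower (background 0.0442%). On the scale of percentage points limma called 4247, or 47.6%, and 27835 of all 1100989 cytosines. A likelihood ratio test on pooled reads, which takes amplified reads as independent molecules and so covers counting error only and not the spread between samples, called 8630 higher (background 11.5%) and 0 lower (background 0.164%), and 8752 had an unadjusted limma p under 0.05 (background 19.9%). Among the other 360340 highly methylated cytosines 18.5% were called higher and the median difference was 3.92 points. The set chosen without control 4 weeks replicate 2 gave 4158 called of 4973, or 83.6%.

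**Figure D1:**
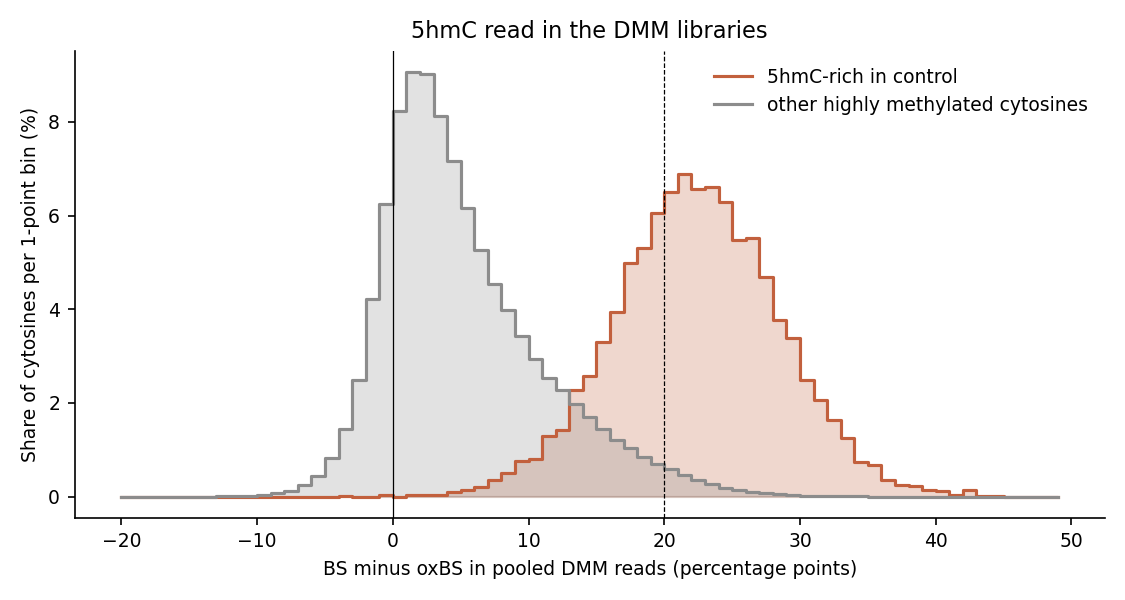
Difference between BS and oxBS in pooled DMM reads, in percentage points on the horizontal axis, at the 8914 5hmC-rich cytosines (orange) and at the 360340 other highly methylated cytosines (grey), as the share of each set per bin of 1 point. The solid line marks 0 and the dashed line the 20 points used to choose cytosines in control reads. The medians are 22.4 and 3.92 points, and the 2 distributions overlap between about 5 and 25 points.

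Samples differed in the oxBS level, and so in the difference, far more than in the BS level. At the 8914 cytosines the mean BS level lay between 74.9% and 77.5% in all 12 DNA samples, while the mean oxBS level ranged from 48.5% to 59.9%. The mean difference was 19.3, 29.0 and 24.6 points in the control samples at 4 weeks and 17.9, 19.002 and 16.7 points in those at 12 weeks. In DMM cartilage it was 22.4, 27.6 and 24.8 points at 4 weeks and 21.8, 16.9 and 19.5 points at 12 weeks. The control values took part in the choice, with the deepest sample from 4 weeks, so the order of the control samples and their place beside the DMM samples are in part set by the rule. The mean over all highly methylated cytosines moved with these values, from 3.43 points in control 12 weeks replicate 3 to 7.01 points in DMM 4 weeks replicate 2. The control sequences that the authors added to assess oxidation were not read here. The part of oxidation in the spread between samples was not tested.

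**Figure D2:**
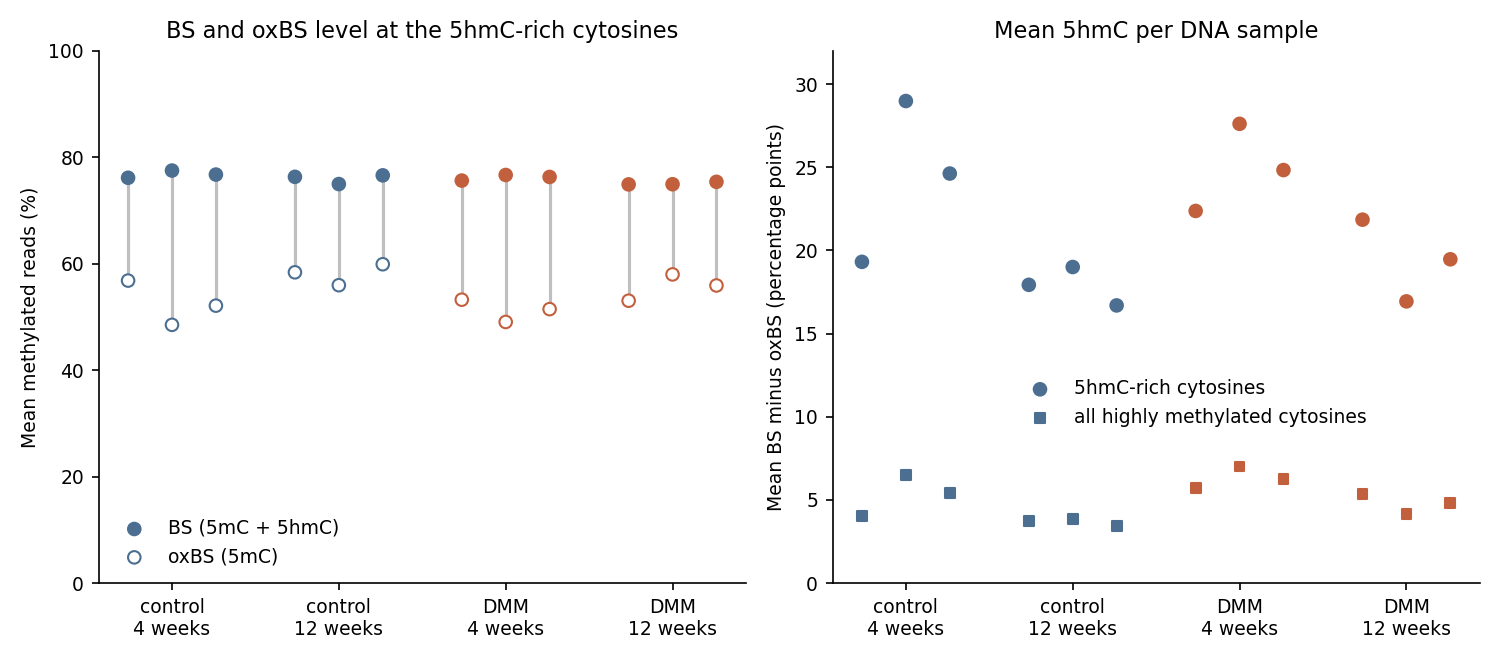
Left, mean percentage of methylated reads in BS (filled) and oxBS (open) at the 5hmC-rich cytosines for each DNA sample, with grey bars joining the libraries of 1 sample, control in blue and DMM in orange. Right, the mean difference in percentage points at the 5hmC-rich cytosines (circles) and at all highly methylated cytosines (squares). BS levels stay between 74.9% and 77.5%, and the difference ranges from 16.7 to 29.0 points.

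Between 4 and 12 weeks after DMM, the mean difference was 24.9 ± 2.62 points (SD, n = 3) and 19.4 ± 2.46 points (SD, n = 3), respectively, and the 3 samples of 12 weeks were all below the 3 of 4 weeks. A two-sided exact permutation test gave p = 0.1, the smallest p that 3 samples against 3 allow. Mean 5mC was 51.3% ± 2.10 and 55.7% ± 2.48 (SD, n = 3 each, exact permutation p = 0.2). Over all highly methylated cytosines the difference was 6.33 ± 0.645 and 4.77 ± 0.607 points (exact permutation p = 0.1). The time after surgery cannot be told apart from the age of the mice, and the libraries were converted in pools of 6 whose makeup is not given, so that the part of the pool was not tested. The mitochondrial reading given above also separated the times, and its part in the difference was not tested. The control reads that chose the cytosines came from the other knees of these mice and were deeper at 4 weeks. Their mean BS coverage was 75.6 at 4 weeks and 37.8 at 12 weeks, and the part of this choice was not tested. By limma 0 of the 8914 cytosines changed in 5hmC at an adjusted p under 0.05 (background 0%), while 1242 had an unadjusted p under 0.05 (background 6.07%), and the pooled likelihood ratio test called 0 (background 0.000454% higher and 0.002% lower). For 5mC limma also called 0 (background 0% higher and 0.000182% lower), with 1129 at an unadjusted p under 0.05 (background 6.05%), and the likelihood ratio test called 10, all higher at 12 weeks (background 0.0276% higher and 0.0173% lower). Without DMM 12 weeks replicate 1, limma called 116 of the 8914 for 5mC, all higher at 12 weeks, and over all 1100989 cytosines 908 higher and 70 lower.

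The single cytosines with the smallest p between the times are the extremes of 8914 and not typical of them, since the median difference in 5hmC between 12 and 4 weeks after DMM was -4.07 points by limma on the scale of percentage points. In an intron of Disp1, which encodes a protein that releases hedgehog ligands, 5hmC was 35.8 ± 2.59 points at 4 weeks and 5.98 ± 7.88 points at 12 weeks after DMM (SD, n = 3 each, adjusted p = 0.783 by limma). In an intron of Limch1, whose product binds non-muscle myosin, 5mC was 48.2% ± 4.82 and 71.5% ± 3.05 (SD, n = 3 each, adjusted p = 0.742 by limma). The other cytosines with the smallest p for 5hmC, in an intron of Epc1 and between genes nearest the starts of Zmiz1 and Gsto2, had 32.96 to 34.6 points at 4 weeks and 6.96 to 9.63 points at 12 weeks. Those for 5mC, in introns of Arhgap44, Zbtb7c and Ext1 and an exon of Rasa3, had 52.4% to 67.4% at 4 weeks and 69.95% to 86.6% at 12 weeks. None of these passed the adjusted threshold.

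DMM and control limbs cannot be compared at the 8914 cytosines with a test, because the control values chose them. Cytosines chosen on the control samples of one time were therefore read at the other. The 17253 cytosines with at least 20 points in the control samples of 4 weeks had 12.8, 13.5 and 11.8 points in the control samples of 12 weeks and 19.2, 14.9 and 17.1 points in the DMM samples of 12 weeks. The DMM samples were all above the control samples, with means of 17.0 ± 2.15 and 12.7 ± 0.843 points (SD, n = 3 each, exact permutation p = 0.1, the smallest possible). Control replicate 2 and DMM replicate 1 of 12 weeks, whose titles differ in style from the others, had the highest value of their group, and without them the DMM samples were still above the control samples. Without DMM 12 weeks replicate 1, the median limma difference between DMM and control, on the arcsine scale, was 0.037 in place of 0.047 at the 17253 cytosines and -0.0028 in place of 0.010 over all cytosines. All highly methylated cytosines showed 4.77 ± 0.607 points in DMM and 3.68 ± 0.225 points in control samples of 12 weeks (exact permutation p = 0.1). In the other direction, 6530 cytosines chosen at 12 weeks had 12.7, 20.2 and 16.7 points in the control samples and 17.7, 21.8 and 19.5 points in the DMM samples of 4 weeks. These ranges overlapped, with means of 16.5 ± 3.77 and 19.7 ± 2.07 points (SD, n = 3 each, exact permutation p = 0.3). At the 6530 cytosines the median limma difference was 0.0077 on the arcsine scale. It was -0.0071 without control 4 weeks replicate 1 and 0.044 without control 4 weeks replicate 2. Limma called 0 of the 17253 and 0 of the 6530 cytosines (background 0% for both), with 2196 and 555 at an unadjusted p under 0.05 (background 5.4% and 6.52%).

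Introns held most of the 5hmC-rich cytosines. They contained 56.3% of them, with intergenic sequence at 26.7%, exons at 12.0% and promoters (from 1000 bp upstream to 500 bp downstream of a transcript start) at 5.01%. Of all measured cytosines 22.2% were intronic and 44.2% in promoters, where the enzyme MspI cuts often, but 11260 promoter cytosines were highly methylated. Among highly methylated cytosines, of which 37.0% were intronic and 2.83% in promoters, 5hmC-rich cytosines made up 3.64% of those in introns, 3.89% in promoters, 1.57% between genes and 1.35% in exons. By distance to the nearest start the share was highest from 500 to 1000 bp, at 5.37%, compared with 2.87% within 500 bp and 1.80% in the most distant class. It fell with CpG density, from 4.09% where the surrounding 200 bp held no more than 1 CpG to 0.629% where they held 12 or more. Soft-masked repeats had 1.39% and other sequence 2.53%. Over all highly methylated cytosines, without regard to the rule, the pooled DMM reads had mean differences of 6.91 points in introns, 6.46 in promoters, 5.12 in exons and 4.57 between genes. With the sets chosen on 4-week or 12-week control samples alone, introns held 54.0% and 50.5%.

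**Figure D3:**
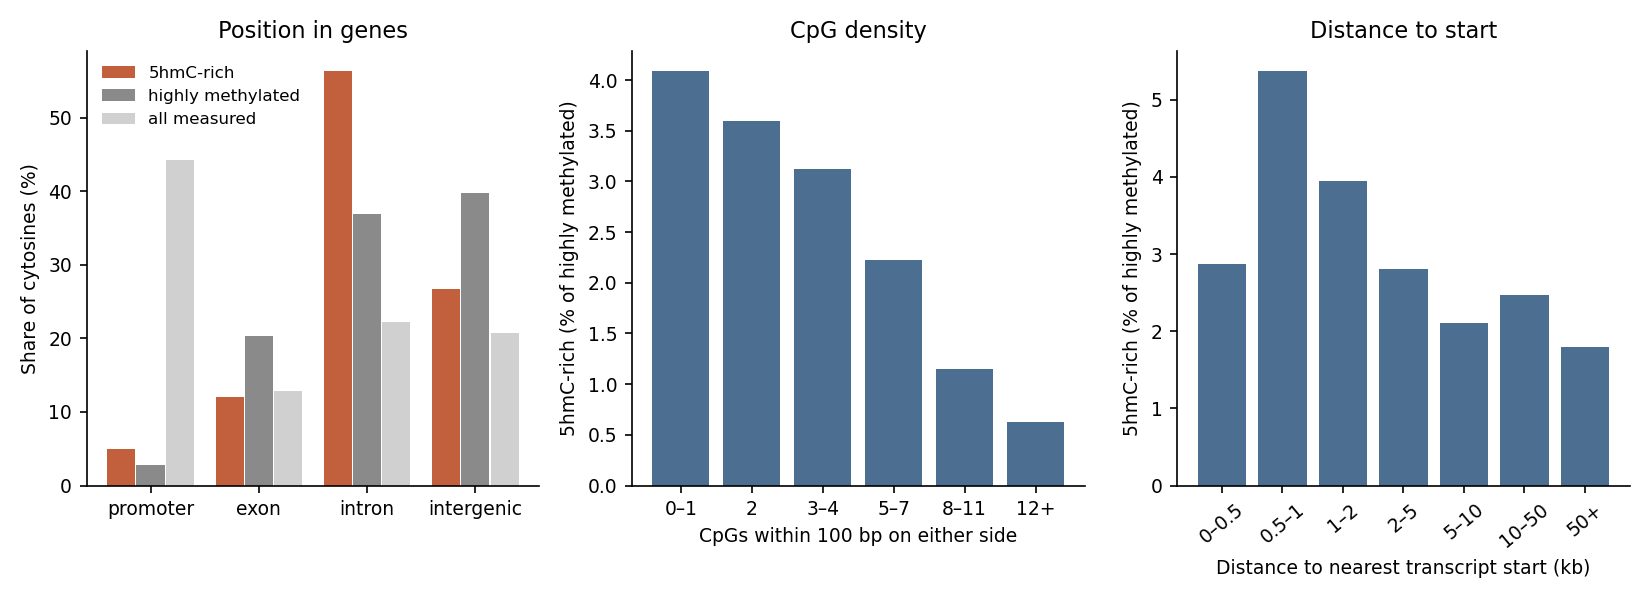
Left, share of 5hmC-rich, highly methylated and all measured cytosines in each position class, in percent. Middle and right, percent of highly methylated cytosines that were 5hmC-rich by the number of CpGs within 100 bp on either side and by the distance to the nearest transcript start in kb. Introns hold 56.3% of the 5hmC-rich cytosines, and the share falls from 4.09% to 0.629% with CpG density.

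The bases around the CpG differed as well. A cytosine preceded the CpG in 75.1% of 5hmC-rich and 64.7% of highly methylated cytosines, and the share that was 5hmC-rich was 2.74% after C, 2.52% after A, 1.40% after G and 1.05% after T. The CpG belonged to an MspI site, CCGG, in 64.2% of 5hmC-rich and 53.6% of highly methylated cytosines. Reads of this assay begin at such sites, and the part of the digestion in the base preference was not tested. Of 1440 5hmC-rich cytosines whose partner on the other strand was measured too, the partner had a median difference of 17.8 points in control and 19.9 points in DMM reads, and in 250 CpGs both strands were 5hmC-rich.

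Neighbouring CpGs shared the mark over short distances. In pooled DMM reads, highly methylated cytosines outside the set had a mean difference of 17.4 points on the opposite strand of a 5hmC-rich CpG, 14.8 points at 1 to 10 bp, 12.7 points at 51 to 100 bp and 11.4 points farther out to 200 bp. From there to 500 bp the mean was 8.92 points, and beyond 5000 bp it was 4.93 points. The BS level did not fall in parallel, with 77.5% on the opposite strand and 82.9% beyond 5000 bp. When CpGs with gaps of at most 100 bp were joined, the 5hmC-rich CpGs formed 8205 regions, of which 6965 had 1 CpG, 990 had 2 and 55 had 4 or more.

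Among the 20 regions with most 5hmC-rich CpGs, 2 with 8 and 7 CpGs lay in exonic sequence of Nfix, a transcription factor of the nuclear factor I family known from muscle and brain development. Over the 4 cytosines of the first region (chr8:84706781-84706930) that were covered in all libraries, 5hmC was 7.63, 29.7 and 23.2 points in the control samples of 4 weeks and 22.9, 12.6 and 12.5 points in those of 12 weeks. In DMM samples it was 20.8, 22.99 and 17.96 points at 4 weeks and 29.8, 21.96 and 19.3 points at 12 weeks, within the range of the control samples but for the highest DMM value. The second Nfix region (chr8:84705426-84705562) had 27.2 ± 1.73 points in DMM cartilage (SD, n = 6), with 25.1 to 29.3 in the single samples. The BS level was 58.0% in DMM and 40.4% in control samples there, so these exonic CpGs were methylated in fewer reads than most. A further 7 CpGs lay in an intron of Lrp5, a WNT co-receptor whose mutation changes bone mass, in sequence that is in part a repeat, and 6 in an exon of Chmp4c, a subunit of the ESCRT-III membrane scission machinery.

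The Fndc3b region printed above had 15.5, 38.9 and 29.2 points in control samples of 4 weeks, 19.3, 25.4 and 21.5 points in those of 12 weeks, 34.0, 46.0 and 32.2 points in DMM samples of 4 weeks and 29.6, 24.6 and 31.7 points in those of 12 weeks. Its mean over the 6 DMM samples was 33.01 ± 7.13 points (SD, n = 6). The 6 CpG positions measured there included 1 outside the set, at base 86 of the printed sequence, which had 11.4 points in DMM reads where the others had 24.5 to 39.2. In the intergenic chromosome 10 region, BS was 53.6% and oxBS 20.9% in DMM samples, and the difference was 32.7 ± 9.78 points (SD, n = 6), from 21.3 to 45.3. Sgms2 had 20.8 ± 7.73 points in DMM samples (SD, n = 6), with 6.31 points in 12 weeks replicate 2 and 18.1 to 26.6 points in the others. Over the 4 of its 6 5hmC-rich cytosines that were covered in all libraries, the Cmip region had a low BS level, 45.6%, and 17.0 ± 5.96 points in DMM samples (SD, n = 6). The other regions overlapped D830013O20Rik, Ksr1, Rin2, Vps37b, Ski, Trp53cor1, Dusp5, Gm20755 and Mark3 or lay between genes, nearest the starts of 4930431P22Rik, A330074K22Rik and Nfkbia, with DMM means from 21.4 to 31.5 points.

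**Figure D4:**
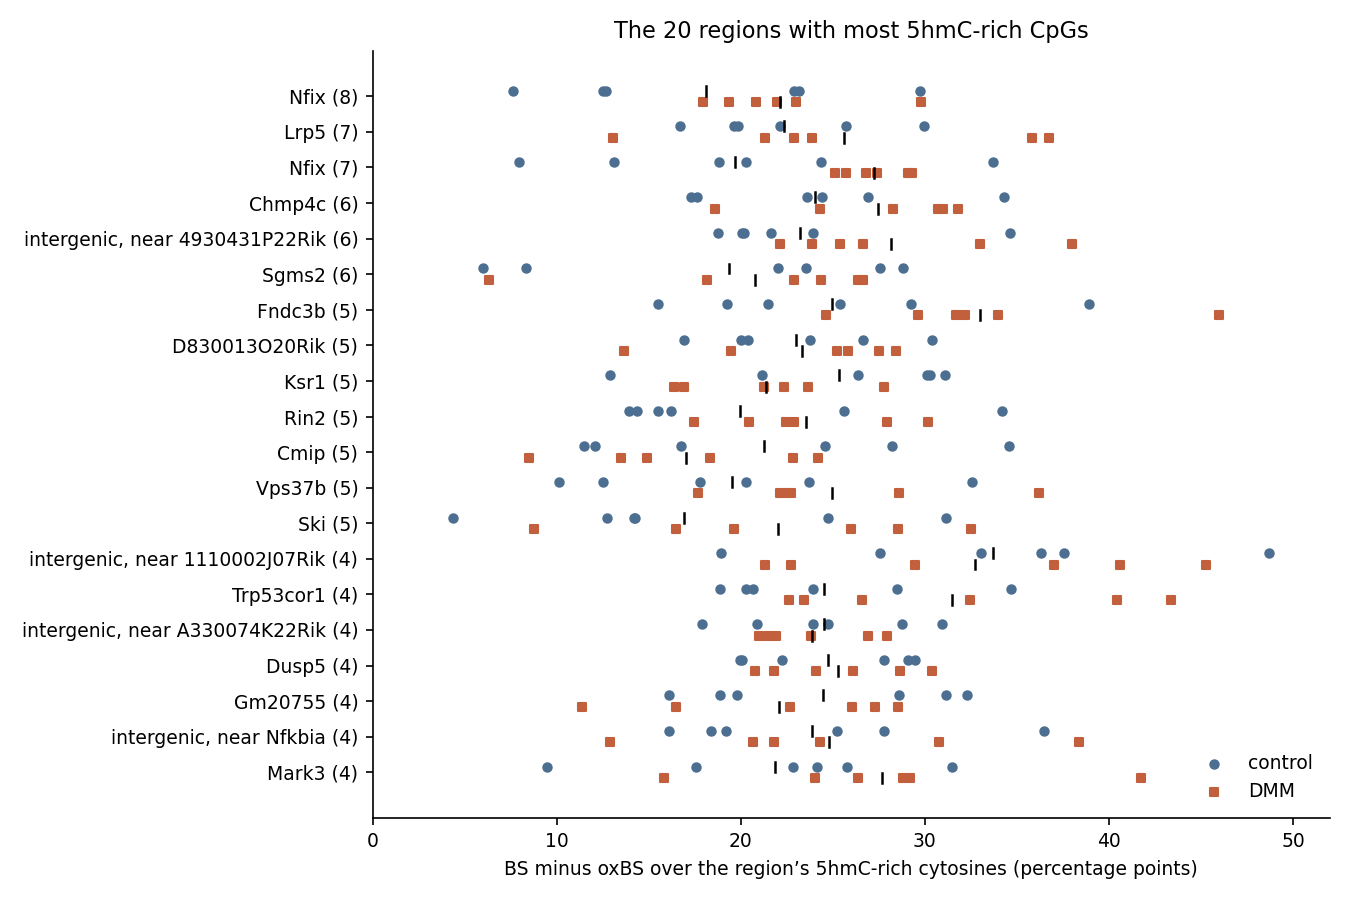
BS minus oxBS difference in percentage points over the 5hmC-rich cytosines covered in all libraries (4 of 8 in the first Nfix region, 4 of 7 in Lrp5, 4 of 6 in Cmip and all in the others) of each of the 20 regions with most 5hmC-rich CpGs (number of CpGs in brackets), 1 point per DNA sample, control as blue circles and DMM as orange squares, with a black tick at the mean of each limb. The control values took part in choosing the cytosines. Fndc3b has the highest DMM mean, 33.01 points, and the second Nfix region the narrowest DMM range, 25.1 to 29.3 points.

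The 10 single cytosines highest in pooled DMM reads among those called had 42.5 to 45.0 points. They are the extremes of the 7933 called, picked on the same reads that gave their limma p. The highest lay between genes at chr6:127331005 (cctttatgccCGgcacaaccg), with 42.5, 47.1 and 64.3 points in the DMM samples of 4 weeks and 38.6, 33.9 and 39.8 points in those of 12 weeks (adjusted p = 0.00111 by limma). One lay in the promoter window of Nsmce3, a subunit of the SMC5/6 complex for chromosome stability, at chr7:64873510 (gagtgagttcCGgtgcagcta). There were 43.1, 41.5, 48.1, 37.3, 43.7 and 40.2 points in the 6 DMM samples (adjusted p = 0.00111 by limma) and 26.3 to 39.7 points in the 6 control samples, a pair of ranges that cannot be compared because the DMM reads chose this cytosine and the control reads took part in the rule. The minus strand of the last CpG of the Sgms2 sequence was among the 10. It had 45.7, 49.7 and 49.0 points at 4 weeks and 33.9, 25.2 and 40.6 points at 12 weeks after DMM. The plus strand of this CpG was outside the set, with 17.7 points in pooled DMM reads against 42.9 on the minus strand. The others lay in introns of Prkce, Atxn7l1os2, Usp25 and D730003I15Rik or between genes.

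Many genes held a single 5hmC-rich CpG and few held many. Of 19289 genes with a measured cytosine in the body or promoter, 3299 held at least 1 such cytosine, 800 held at least 3 CpGs and 89 held at least 10. Cmip, an adaptor of T-cell and filamin signalling, had 34 CpGs, and 34 of its 35 5hmC-rich cytosines were intronic. Next came the cytoskeletal GTPase gene Septin9 with 27, the RNA-binding Musashi gene Msi2 with 27, the forkhead factor Foxp1 with 26, and Chst11 with 24. Chst11 encodes the sulfotransferase that adds 4-O-sulfate to chondroitin, the main glycosaminoglycan of cartilage. Tcf4, Sash1, Auts2, Zfhx3, Ctif, Fndc3b, Nfix, Tns1, Tcf7l2 and Etv6 followed with 15 to 20. These counts were not adjusted for the number of cytosines measured in a gene. Zfhx3 and Fndc3b each held 19 5hmC-rich cytosines, but had 300 and 65 highly methylated ones, respectively. Nfix stood apart in that 16 of its 17 5hmC-rich cytosines were exonic. Mean 5hmC over the 5hmC-rich cytosines of the 15 genes that were covered in all libraries was 20.9 to 30.7 points in DMM cartilage, with Fndc3b highest at 30.7 ± 5.10 (SD, n = 6). Chst11 had 22.96 ± 3.77 points (SD, n = 6), from 19.8 to 28.9.

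Lists of cartilage genes were counted for 5hmC-rich cytosines, and differences between the lists were not tested. Of 24 transcription factors of cartilage, 13 had a 5hmC-rich cytosine and 11 at least 3 CpGs, among them Runx1 with 13, Erg with 11, Sox5 with 9, Nfatc1 with 9 and Sox6 with 7, and also Foxo3, Nfatc2, Epas1, Foxo1, Runx2 and Mef2a with 3 to 6. Sox5 and Sox6 act together with Sox9 in chondrocyte differentiation, and Erg is an ETS factor of articular chondrocytes. Of 36 genes of TGF-beta, BMP, WNT and hedgehog signalling, 24 had one and 13 at least 3 CpGs. Among downstream factors of these pathways, Tcf7l2 had 16 CpGs, Smad3 had 12 and the inhibitory Smad6 had 12, while Smad2 and Smad4 had 1 each and Ctnnb1 none. Among receptors Tgfbr3 had 12 and Lrp5 had 11. Tcf7l1, Gli2, Wnt5b, Tgfb2, Tgfbr2, Smad7, Acvr1 and Lrp6 had 3 to 5. In the bodies of both lists 10.1% and 10.6% of highly methylated cytosines were 5hmC-rich (2.79% over all gene bodies). Of 18 measured chondrocyte genes, which include Sox9 of the transcription factor list, 7 had one and 3 at least 3 CpGs, and 5.20% of highly methylated cytosines in their bodies were 5hmC-rich. Cilp2 had 6, Col11a2 had 4 and Col9a1 had 3. Col2a1, the main collagen of cartilage, had none among 58 highly methylated cytosines. At the 2.79% over all gene bodies few would be found among 58. Of 21 genes linked to 5mC and 5hmC, Idh1 and Idh2 among them, 7 had one. There were 3 CpGs in introns of Tet3, 2 in introns of Tet2 and none in Tet1. These genes had 84, 17 and 38 highly methylated cytosines, respectively. In the bodies of these 21 genes 3.24% of highly methylated cytosines were 5hmC-rich, beside 2.79% over all gene bodies. For comparison 17.1% of all genes had a 5hmC-rich cytosine. The genes were not matched for length or number of CpGs.

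Genes of other cell types that a dissection could include were counted in the same way, with 17.1% of all genes as background. Of 8 osteoblast and osteocyte genes 1 had a 5hmC-rich cytosine (Alpl), of 7 osteoclast genes 0, of 10 skeletal muscle genes 2 (Tnnt3 and Tnni2), of 3 blood and bone marrow genes 0, and of 12 genes of synovium, fibroblasts, endothelium and fat 3, with 4 CpGs in the endothelial gene Pecam1. In the bodies of the osteoblast, muscle and synovium lists 2.86%, 2.13% and 2.42% of highly methylated cytosines were 5hmC-rich. The osteoclast and blood lists had 0%, and all gene bodies 2.79%. These shares rest on few cytosines, as the osteoblast, muscle and synovium genes held 2, 3 and 6 5hmC-rich cytosines. RNA of these cells was present in the RNA libraries of other mice. The blood list of 12 genes summed to 18491 to 59435 RPKM (reads per kilobase of transcript, scaled to the counted total of the library) and the chondrocyte list of 20 genes to 5662 to 22720 RPKM over the 12 libraries, and no gene of either list was at 0. In a tissue of mixed cells, a 5hmC level of 20 points can be a high level in some cells or a low level in all, and the 2 cannot be told apart here. Likewise, fewer cells of a type and less RNA per cell cannot be told apart.

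In control cartilage the median expression of genes that held 5hmC-rich cytosines was above that of other genes. It was 4.49 RPKM over 3138 genes with such a cytosine, 2.56 RPKM over the genes without one and 2.95 RPKM over all 17528 measured genes with an RPKM value, a ratio of 1.52 that ranged from 1.48 to 1.62 over the 6 control RNA libraries. Of the genes with a 5hmC-rich cytosine 77.2% had at least 1 RPKM, against 63.8% of all. When genes were divided into quartiles by control RPKM, 0.861% of the highly methylated intronic cytosines were 5hmC-rich in the lowest quartile, 3.72% in the second, 5.03% in the third and 5.63% in the highest. In exons the shares were 0.719%, 1.19%, 1.45% and 2.08%. The DMM libraries gave a mean difference of 4.12 points at highly methylated intronic cytosines of the lowest quartile and 8.60 points in the highest. Genes with at least 3 5hmC-rich CpGs had a median of 4.20 RPKM and those with at least 10 a median of 4.07 RPKM. These values are descriptions, as the genes are not replicates.

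**Figure D5:**
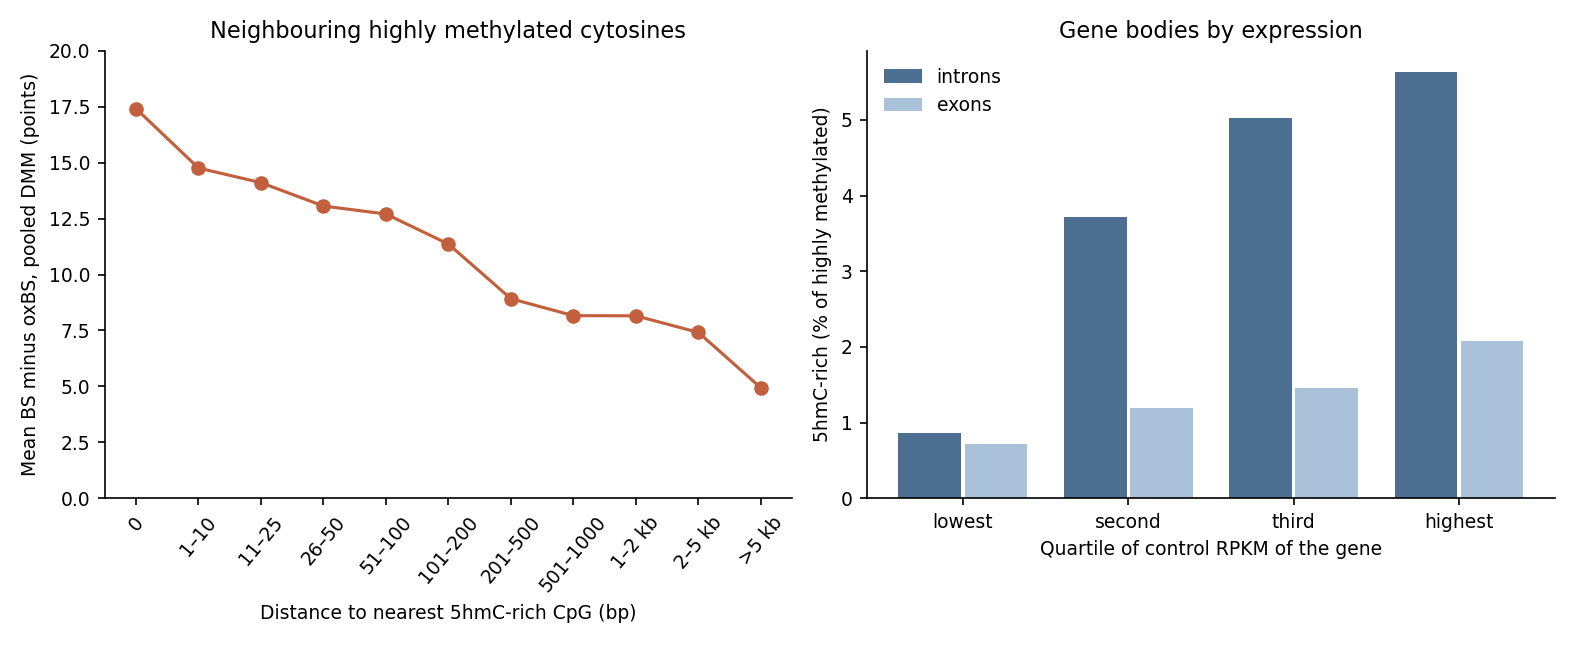
Left, mean BS minus oxBS difference in pooled DMM reads, in percentage points, at highly methylated cytosines outside the 5hmC-rich set, by distance to the nearest 5hmC-rich CpG (0 is the opposite strand of the same CpG). It falls from 17.4 to 4.93 points. Right, percent of highly methylated cytosines in introns and exons that were 5hmC-rich, by quartile of the gene's RPKM in control RNA libraries. In introns it rises from 0.861% to 5.63%.

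Genes named for their many 5hmC-rich CpGs spanned a wide range of expression. On the RPKM scale, Septin9 had 25.97 ± 7.53 in control and 22.4 ± 6.20 in DMM libraries, Tcf4 had 19.8 ± 6.66 and 27.1 ± 5.37, Foxp1 had 7.26 ± 0.948 and 8.70 ± 1.99, and Cmip had 7.04 ± 1.501 and 6.80 ± 1.81 (SD, n = 6 each). At the low end, Ctif had 0.229 ± 0.0578 and 0.312 ± 0.0330 RPKM (SD, n = 6 each). For Auts2 no RPKM is given here.

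After DMM, edgeR's quasi-likelihood test, fitted without a replicate block, called none of the genes with 5hmC-rich cytosines. Of 2915 such genes tested at 4 weeks 0 had an adjusted p under 0.05 (background 0.0361%) and 400 an unadjusted p under 0.05 (background 13.1%). Of 2909 at 12 weeks 0 were called (background 0.00726%) and 595 had an unadjusted p under 0.05 (background 16%). DESeq2 called 85 genes at 4 weeks, 31 higher (background 1.03%) and 54 lower (background 2.06%) in DMM, together 2.88% of those tested (background 3.09%). At 12 weeks it called 168, with 126 higher (background 2.42%) and 42 lower (background 1.25%), together 5.72% (background 3.68%). The median log2 fold change of DMM against control by edgeR was -0.15 over the genes with 5hmC-rich cytosines and -0.04 over all tested genes at 4 weeks, and 0.10 and 0.02 at 12 weeks. Calls by edgeR also depended on single libraries, with 14 without control 4 weeks replicate 3 (0.478%, against 0.558% of all genes), 172 without control 12 weeks replicate 2 (5.87%, against 3.92%) and 19 without DMM 12 weeks replicate 3 (0.649%, against 0.453%). The interaction of limb and week called 0 of 2944 by edgeR (background 0%), with 445 at an unadjusted p under 0.05 (background 11.9%).

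The genes below passed the DESeq2 threshold and not that of edgeR without a replicate block. At 4 weeks, genes of muscle led those with lower RNA. Mybph, a myosin-binding protein gene, had 7.66, 3.20 and 5.81 RPKM in control and 1.10, 0.785 and 0.369 RPKM in DMM libraries (log2 fold change -2.89 ± 0.45 SE, adjusted p = 1.72e-07 by DESeq2 and 0.18 by edgeR), and the groups did not overlap. Control libraries of 12 weeks had 0.166, 0.296 and 5.48 RPKM of Mybph, and some of these lay below the DMM values of 4 weeks. Alpk3, Xirp2, Nrap and Myom1, which act in the sarcomere or its attachment, fell by DESeq2 as well. The summed level of the 10 skeletal muscle markers was 13077, 3912 and 3448 RPKM in control and 2084, 1086 and 389.9 RPKM in DMM libraries of 4 weeks, none of the markers was at 0, and their part in these falls was not tested. Over the libraries of both times this sum ranged from 59.4 to 13077 RPKM in control and from 312 to 6149 RPKM in DMM. The genes with higher RNA at 4 weeks by DESeq2 included Fap, a surface protease of activated fibroblasts, with 36.7, 40.7 and 44.5 RPKM in control and 81.8, 106 and 130 RPKM in DMM libraries (log2 fold change 1.37 ± 0.25 SE, adjusted p = 1.70e-05 by DESeq2 and 0.18 by edgeR). Antxr1, a collagen-binding receptor gene, rose by DESeq2 at both times, from 2.48, 3.21 and 1.86 to 6.73, 7.25 and 12.6 RPKM at 4 weeks and from 1.598, 1.32 and 1.74 to 4.73, 4.64 and 2.87 RPKM at 12 weeks. Fam167a, Mecom and Serpinf1 were also among the 10 of 4 weeks and higher in DMM. The summed markers of synovium, fibroblasts, endothelium and fat were 259 to 277 RPKM in control and 372 to 523 RPKM in DMM libraries of 4 weeks, and their part in these rises was not tested.

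At 12 weeks the 10 genes with the smallest DESeq2 p were all higher in DMM. Htra4, a gene of the HtrA serine protease family, had 18.96, 26.5 and 23.8 RPKM in control and 62.4, 66.5 and 54.2 RPKM in DMM libraries (log2 fold change 1.40 ± 0.18 SE, adjusted p = 7.00e-11 by DESeq2 and 0.0643 by edgeR). Pdpn, which encodes podoplanin, a glycoprotein of early osteocytes and synovial fibroblasts, had 1.41, 1.23 and 1.27 RPKM in control and 4.34, 4.24 and 3.50 RPKM in DMM libraries, without overlap. Nbl1, which encodes a secreted BMP antagonist, rose from 37.1, 37.1 and 44.5 to 169, 152 and 83.6 RPKM. Chil1, a chitinase-like protein of chondrocytes and macrophages, had 210.0, 267 and 194 RPKM in control and 495, 406 and 409 RPKM in DMM libraries. Control libraries of 4 weeks had 180, 170 and 36.2 RPKM of Htra4 and 148, 158 and 27.6 RPKM of Nbl1. For Pdpn they had 5.92, 7.71 and 2.12 RPKM. For each of these genes some of these values lay within or above the DMM range of 12 weeks. Those of Chil1, at 383, 283 and 185 RPKM, lay below it. Folr2, Muc1, 1700019D03Rik, Megf6, Nsg1 and Antxr1, given above, completed the list. The summed osteoblast and osteocyte markers were 4955 to 7416 RPKM in control and 8137 to 9867 RPKM in DMM libraries of 12 weeks, and their part in these rises was not tested. Among the genes of the region and gene lists above, Nfix had 4.04 ± 2.09 RPKM in control and 5.10 ± 1.29 RPKM in DMM libraries of both times (SD, n = 6 each), with a log2 fold change of 0.98 at 12 weeks (adjusted p = 0.149 by edgeR and 0.000842 by DESeq2). Ski, Msi2, Sash1, Zfhx3 and Tns1 were also higher at 12 weeks by DESeq2 (background 2.42%), with adjusted p-values of 0.00192 to 0.0492. Ksr1 was lower at 4 weeks (adjusted p = 0.0417 by DESeq2, background 2.06%), at a low level of 0.0717 to 0.698 RPKM over all RNA libraries. None of these passed by edgeR. The other tested genes of the 20 regions and 15 genes were not called by DESeq2. In the signalling list, 3 of 24 genes with a 5hmC-rich cytosine were higher by DESeq2 at 12 weeks (background 2.42%) and 0 at 4 weeks (background 1.03%). They were Bmp7, Wnt5b and Tgfb2. Wnt5b and Tgfb2 had DESeq2 log2 fold changes of 0.91 ± 0.23 and 0.62 ± 0.19 (SE) at 12 weeks, with adjusted p-values of 0.0071 and 0.0345 by DESeq2 and 0.194 and 0.211 by edgeR. The 4 5hmC-rich cytosines of Wnt5b had 24.4 points in DMM and 25.2 points in control reads, the latter chosen by the rule. In Tgfb2, the 2 of 3 5hmC-rich cytosines covered in all DMM libraries had 22.5 points in DMM reads. In the other lists, DESeq2 called Tnnt3 and Tnni2 lower at 4 weeks (background 2.06%), the only 2 genes of the skeletal muscle list with a 5hmC-rich cytosine. Of the 3 synovium, fibroblast, endothelium and fat genes with one, it called Pdgfra, higher at 4 weeks (background 1.03%). At 12 weeks it called Comp of 7 chondrocyte genes and the osteoblast gene Alpl, both higher (background 2.42%). Dnmt1, of 7 genes linked to 5mC and 5hmC, was lower at 12 weeks (background 1.25%). None of the 13 transcription factors was called at either time, and edgeR called none of these genes.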

How the data were processed

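RRoxBS libraries were made by the authors from MspI-digested DNA, pooled, divided into an oxidised and a mock-oxidised part and amplified for 9 (oxBS) and 7 (BS) PCR cycles. Per the file headers, the deposited values are the coverage, as a count of reads, and the percent of reads with C or T for each CpG cytosine and strand, with a deposited minimum of 10 reads. The deposited RNA values are raw counts per RefSeq transcript, assigned by the authors with featureCounts after STAR alignment, and 29476 of 30048 transcripts matched a gene. RNA totals were 27706547 to 62737656 counts. The submitters' processing notes name Bismark, CASAVA 2.17 and mm10. The methods describe SMART-Seq v4 cDNA for RNA, the labels poly(A) libraries.

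The cytosines and gene lists were chosen with earlier results of these data known. Groups and replicate numbers came from the labels, and 1 BS library (DMM 12 weeks replicate 1) has another number in its file's name. BS and oxBS of a DNA sample come from 1 indexed library and were paired. Deviations from the group mean correlated most with the same-numbered library of the other assay (for that sample r = 0.14, against -0.08 and -0.05).

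Levels were tested in R 4.3.3 with limma 3.58.1 on the arcsine square root of (methylated reads + 0.5)/(coverage + 1), weighted by coverage, at the 1100989 autosomal cytosines with 10 or more reads in all 24 files, with Benjamini-Hochberg adjustment. RNA was tested per time with edgeR 4.0.16 (TMM, filter on low counts) over all transcripts, and a gene was read by its transcript with the highest mean count. DESeq2 1.42.0 was the alternative. RPKM was computed from counts. Single values were compared by exact permutation tests, two-sided. At the simulated depth, limma called 98 of 100 cytosines with 20 points of 5hmC in DMM. It called 48 of 100 with a change of 20 points between weeks and 17 of 100 with a change of 10 points. These simulated reads had no spread between samples and were adjusted over fewer cytosines than the data. The limma shares therefore do not give the power in the data. In simulated RNA edgeR called 198 of 200 genes changed 4-fold.

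Genes and sites given by name come from the 20 regions and 15 genes with most CpGs, the 10 highest called cytosines in DMM, up to 10 genes a week with the smallest DESeq2 p, list genes with at least 3 CpGs, and up to 5 cytosines with the smallest p in each test of 12 against 4 weeks. The called genes of the lists with fewer CpGs were named after their values were seen. One cytosine of the last rule is not reported here.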

Additional observations from a re-analysis of the deposited data

Results flagged for a closer look

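The X chromosome was left out of the rule. On it, 71 of 12098 measured cytosines, or 0.587%, had a difference of at least 20 points in pooled control reads, beside 0.853% of the autosomal cytosines under the same rule. The difference between these shares was not tested.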

How the results depend on the processing

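The number of 5hmC-rich cytosines followed the rule's settings, with 3774 at a coverage of at least 20, 31458 at 15 points and 2427 at 25 points, and 5776 to 13161 when each control sample was left out in turn. Calls of 5hmC in DMM fell to 4247 of 8914 on the scale of percentage points (27835 of all 1100989 cytosines), were 8022 with no replicate block pairing BS with oxBS (91997 of all), and ranged from 5512 to 7736 when each DMM sample was left out (36840 to 78799 of all), and no 5hmC-rich cytosine was called lower in these fits. For 5mC at 12 against 4 weeks, the likelihood ratio test gave 10 and leaving out 1 sample gave 0 to 116. RNA calls at 4 weeks were 85 by DESeq2, 42 with a replicate block (1.44%, against 1.66% of all genes) and 0 to 14 with 1 library left out, and at 12 weeks 168 by DESeq2, 5 without a filter on low counts (0.161%, against 0.148% of all genes), 148 with a replicate block (5.09%, against 3.28%) and 0 to 172 with 1 library left out. With the replicate block, the genes named for their DESeq2 p also passed by edgeR, except Antxr1, Mecom and Serpinf1 at 4 weeks and Nbl1 at 12 weeks. The labels do not say which pools of control and DMM limbs shared mice, and the numbers did not pair them by correlation, as same-numbered RNA libraries correlated at 0.39, -0.45 and 0.12 at 4 weeks and -0.66, 0.46 and -0.28 at 12 weeks. For DNA (BS) the values were 0.36, 0.29 and 0.004 at 4 weeks and -0.05, -0.02 and 0.03 at 12 weeks, so that 2 of the 3 numbers at 4 weeks correlated. A replicate block gave 0 calls in both comparisons of DMM with control 5hmC, and for the cytosines read at 4 weeks it raised those with an unadjusted p under 0.05 from 555 to 859 of 6530, with DMM above control in all 3 same-numbered pairs of sample means. The intron share was 52.3% with promoters of 2000 bp on either side, 54.0% and 50.5% for cytosines chosen at 4 or 12 weeks, and 54.7% without control 4 weeks replicate 2, a choice made after seeing the data, as was the mean of 6 sample differences. The expression ratio was 1.82 for the gene with the nearest start, 1.43 for genes with at least 3 CpGs and 1.93 in CPM. The causes of these shifts were not tested. No named region or gene changed sign. Of the 96 alternative values of the main results, 74 were counted as the same, 12 as moved and 10 as stronger. Most of the 74 were counts of 0 calls that stayed at 0, in tests that called few or no features anywhere. For single named regions and genes and for position shares, 373 of 445 were counted as the same. They include 120 values of 5hmC in regions and 90 in genes, each with 1 DMM sample left out. A mean of 6 samples cannot move by their SD when 1 is left out. These labels were therefore fixed in advance and say nothing on stability. Counts had to stay within a fixed factor of the main count, and position shares within the exact binomial interval of the main share. RNA of named genes had to keep its side of the threshold, and other values had to move by less than the spread between replicates. Counts of calls hold no direction. Without control 4 weeks replicate 1, the median limma difference on the arcsine scale turned at the 6530 cytosines, from 0.0077 to -0.0071. Median coverage down to 19 reads limits single cytosines.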

Other observations

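Sequence motifs within 100 bp of the 5hmC-rich CpGs differed little from those around other highly methylated CpGs. The AP-1 letters TGANTCA, searched on both strands in the RefSeq sequence of GRCm38, occurred at 5.85% of 9773 5hmC-rich CpGs and at 4.53% of 359000 other highly methylated CpGs, and the RUNX letters TGTGGTT at 4.43% and 3.48%. Among CpGs with no more than 4 CpGs in the window, the AP-1 shares were 6.16% and 5.49%. In pooled DMM reads, highly methylated cytosines with TGANTCA nearby had a mean 5hmC of 6.90 points and those without it 5.54 points. The SOX letters ACAATGG were at 2.47% and 2.37%, and the TEAD letters GGAATG at 11.5% and 10.97%, but among CpGs with no more than 4 CpGs in the window both turned, to 2.41% and 2.79% for SOX and to 11.97% and 12.06% for TEAD. The FOX letters TGTTTAC were lower at 5hmC-rich CpGs, at 1.95% and 2.09%. A match is a description of the letters and no evidence of a bound factor.

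Among the 516 cytosines with more 5hmC than 5mC in control cartilage, 409 were covered in all DMM libraries, and 212 of these had more 5hmC than 5mC there too. Over all 8914 5hmC-rich cytosines with that coverage, 344 had more 5hmC than 5mC in pooled DMM reads. The 516 were picked on control reads.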
